A study of Mus musculus with 6 samples.

Results

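Bone matrix holds, beside its collagen fibres, a small set of non-collagenous proteins that osteoblasts secrete or display as they mineralise. Of 8 listed genes of this kind, 7 could be measured: Ibsp, Sparc, Ifitm5, Postn, Cthrc1, Kazald1 and Cgref1, out of 19935 genes on the arrays. Spp1, the gene of osteopontin, is the eighth and is not analysed here, since no probe set carried its symbol alone. The list names matrix proteins and products of mineralising osteoblasts, and it was drawn up with earlier results of these data known. Each measured gene was read by 1 probe set.

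The study compared osteoblastic cells of mice deficient in Y1, the receptor for neuropeptide Y (Y1KO, 2 arrays), with those of wild-type mice (WT, 4 arrays), all male. Both genotypes carried green fluorescent protein driven by 3.6 kb of rat alpha1(I)-collagen promoter, and fluorescent cells were sorted from marrow stromal cultures of the femora and tibias after 7 days. That promoter marks cells that make type I collagen and does not single out 1 stage of the lineage. The sources used here do not state age, strain, the make of the Y1 allele or how many mice stand behind each array. A p-value therefore reflects only how far these arrays scatter, part of which may be technical. The question is whether the matrix genes of sorted osteoblastic cells differ when Y1 is missing.

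As background, mineralising osteoblasts lay down type I collagen and then load it with acidic and calcium-binding proteins. Ibsp encodes bone sialoprotein, which binds collagen and integrins and can seed hydroxyapatite crystals. Sparc encodes osteonectin, a calcium- and collagen-binding glycoprotein that is abundant in bone. Ifitm5 encodes a small membrane protein of mineralising osteoblasts, and changes in the human gene cause a brittle bone disease. Postn encodes periostin, a matricellular protein of the periosteum with fasciclin domains. Cthrc1 encodes a secreted protein with a short collagen-like repeat, Kazald1 a secreted protein with a Kazal domain related to the IGF-binding proteins, and Cgref1 a secreted protein with calcium-binding EF-hands.

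The medians of the log2 values over all probe sets lay between 5.30 and 5.37 on the 6 arrays, after a normalization that brings them close. Across genes, which are not independent replicates, arrays of one genotype correlated at 0.991 or more and arrays of different genotypes at 0.976 to 0.987. Npy1r, the targeted gene, read 2.89 and 2.83 in the Y1KO arrays, against 3.11, 2.84, 2.78 and 3.00 in WT replicates 1 to 4. These log2 levels overlap at the bottom of the range (difference -0.08, limma adjusted p = 0.768), so the probe set checks the genotype labels neither way. Of the osteoblast markers, all 6 that were measured lay above the median of all genes in both genotypes, while all 6 endothelial markers lay below it. WT replicate 2 was the lowest WT array in 6 of the 7 matrix genes, and each of the 7 is also given without it.

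The stretches of 250 bases before the transcription start are printed for the members that passed the test and have an entry, and for Ibsp as the classical bone gene of the set. They come from RefSeq on build GRCm38.p6, on the strand of the gene, and capitals mark matches to 6 short motifs searched on both strands: the Runx core TGTGGT, the homeodomain core TAATTG, the GC box GGGCGG, the TATA box TATAAA, the AP-1 site TGANTCA and TGACG, the core of the cAMP response element. Among the measured members, the table holds 2 starts each for Postn, Kazald1 and Cgref1, and the most upstream one is shown for Cgref1, whose windows overlap, and both for Postn.
Ifitm5, chr7:140950244-140950493, minus strand: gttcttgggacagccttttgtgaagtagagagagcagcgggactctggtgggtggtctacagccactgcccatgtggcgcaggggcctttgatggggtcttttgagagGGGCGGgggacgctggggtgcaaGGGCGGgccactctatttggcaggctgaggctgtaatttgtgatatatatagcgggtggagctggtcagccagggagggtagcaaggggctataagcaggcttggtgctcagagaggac
Cgref1, chr5:30945481-30945730, minus strand: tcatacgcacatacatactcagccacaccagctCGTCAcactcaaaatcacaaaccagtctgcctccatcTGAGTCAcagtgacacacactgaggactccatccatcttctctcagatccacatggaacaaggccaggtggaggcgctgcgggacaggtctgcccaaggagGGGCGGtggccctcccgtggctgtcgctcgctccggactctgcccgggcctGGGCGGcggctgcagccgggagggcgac
Postn, upstream start, chr3:54359017-54359266, plus strand: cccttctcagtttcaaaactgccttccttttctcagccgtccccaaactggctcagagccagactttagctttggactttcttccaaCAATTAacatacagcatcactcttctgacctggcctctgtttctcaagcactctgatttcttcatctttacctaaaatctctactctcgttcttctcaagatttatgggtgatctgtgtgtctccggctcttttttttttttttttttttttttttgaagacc
Postn, downstream start, chr3:54360857-54361106, plus strand: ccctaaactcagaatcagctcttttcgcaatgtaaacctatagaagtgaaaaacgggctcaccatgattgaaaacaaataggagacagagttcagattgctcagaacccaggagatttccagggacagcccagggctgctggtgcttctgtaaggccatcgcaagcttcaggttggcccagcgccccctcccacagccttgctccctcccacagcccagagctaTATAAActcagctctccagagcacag
Ibsp, chr5:104299037-104299286, plus strand: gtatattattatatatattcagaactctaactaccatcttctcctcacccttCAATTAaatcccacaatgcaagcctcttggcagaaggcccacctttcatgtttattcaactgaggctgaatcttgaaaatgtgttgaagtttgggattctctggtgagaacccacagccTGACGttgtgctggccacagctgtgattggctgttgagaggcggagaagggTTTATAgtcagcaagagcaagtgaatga

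The windows differ in their motifs. Ifitm5 holds 2 GC boxes, which start at positions -142 and -119 relative to the start, and none of the other motifs. The Cgref1 window shown holds 2 GC boxes, an AP-1 site and the cAMP core. Its downstream window, which overlaps it, lacks the cAMP core and has a further GC box at -34 to -29, on the other strand. Kazald1 holds a GC box in each of its 2 windows and the cAMP core in 1. A TATA box lies at -26 to -21 of the downstream Postn start, and the same letters on the other strand lie at -28 to -23 of Ibsp. The upstream Postn window and Ibsp each hold a homeodomain core, and Ibsp also holds the cAMP core. The Sparc window holds none of these letters, and the Runx core is in none of the windows of Ibsp, Sparc, Ifitm5, Postn, Kazald1 or Cgref1. Among all 32851 windows of the table, 32.7% hold a GC box, 12.4% a TATA box, 7.17% a homeodomain core, 6.75% an AP-1 site, 17.8% the cAMP core and 14% a Runx core. The motif matches do not overlap one another in these windows. They are a description of letters only and bear on no factor.

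All 7 measured genes had higher values in both Y1KO arrays than in any WT array, and 4 of them rose past the test: Ifitm5, Postn, Cthrc1 and Cgref1. No member fell. The test was limma with Benjamini-Hochberg adjustment over all genes, at an adjusted p under 0.05. In the same test 6.10% of all genes rose and 6.64% fell. Of all genes 17.5% lay higher in both Y1KO arrays than in any WT array (34.8% were separated in either direction). All 7 members have mean levels above the 60th percentile. Among genes above it 29.1% were called in either direction, against 12.7% of all genes, and 49.8% of the filtered calls were higher. The median difference of the 7 genes was 1.13 on the log2 scale, beside 0.01 over all genes tested. The list was drawn up with earlier results of these data known. These shares and medians therefore describe the set and do not test it. In bulk RNA, a larger share of cells of one type and more RNA per cell cannot be told apart.

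**Figure D1:**
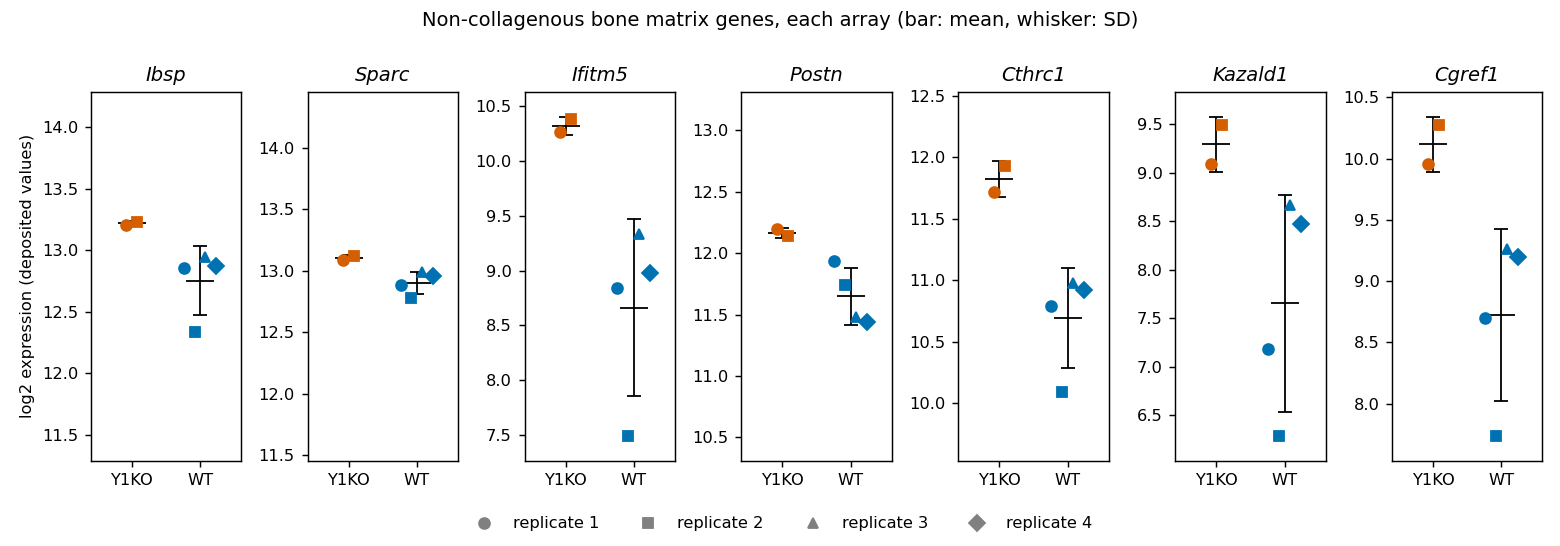
Log2 expression of the 7 measured genes on each array, with Y1KO on the left and WT on the right of each panel. Marker shape gives the replicate, horizontal bars are means and whiskers SD (n = 2 Y1KO, n = 4 WT), and panels have their own axes. Both Y1KO arrays lie above all WT arrays in each panel, and WT replicate 2 is the lowest array in all panels but Postn.

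Cthrc1 gave the smallest p-value of the set. It read 11.72 and 11.93 in the Y1KO arrays, against 10.79, 10.09, 10.98 and 10.92 in WT replicates 1 to 4. The genotypes did not overlap, and the gap between the lowest Y1KO and the highest WT array was 0.74. The mean was 11.82 ± 0.15 (SD, n = 2) in Y1KO and 10.69 ± 0.41 (SD, n = 4) in WT. The difference of 1.13 (SE 0.23, limma adjusted p = 0.0129) is a 2.19-fold rise, with a 95% interval of 1.53-fold to 3.13-fold. Without WT replicate 2 the difference was 0.93 (adjusted p = 0.00139). With Y1KO replicate 1 or 2 left out the difference was 1.23 and 1.03, and the adjusted p was 0.0725 and 0.145. Those fits hold 1 Y1KO array, which is assumed to vary like the WT arrays, here and wherever a Y1KO array is left out.

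Ifitm5 differed most in size. Its log2 values were 10.26 and 10.38 in the Y1KO arrays, against 8.84, 7.49, 9.34 and 8.98 in WT replicates 1 to 4. The Y1KO arrays lay within 0.12 of each other, whereas the WT arrays spanned 1.85, with WT replicate 2 far below the rest. Ifitm5 rose by 1.66 (SE 0.42, limma adjusted p = 0.0341), a 3.16-fold difference with a 95% interval of 1.63-fold to 6.13-fold. Without WT replicate 2 it was 1.27 higher (adjusted p = 0.00131). Adjusted p was 0.0546 without WT replicate 1 and 0.055 without WT replicate 4. With Y1KO replicate 1 or 2 left out the difference was 1.72 and 1.60, and the adjusted p was 0.16 and 0.222.

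Cgref1 had the same shape. It read 9.96 and 10.28 in the Y1KO arrays, against 8.70, 7.74, 9.26 and 9.19 in WT replicates 1 to 4. The WT arrays spanned 1.53 on the log2 scale and none of them reached the lower Y1KO array. Cgref1 rose by 1.39 (SE 0.37, limma adjusted p = 0.0421), which is 2.63-fold with a 95% interval of 1.46-fold to 4.73-fold. Leaving out WT replicate 2 gave 1.07 (adjusted p = 0.00606). The adjusted p was 0.0792 without WT replicate 1. With Y1KO replicate 1 or 2 left out the difference was 1.55 and 1.23, and the adjusted p was 0.148 and 0.286.

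Kazald1 showed a difference about as large as that of Ifitm5 and did not pass the test. Its values were 9.09 and 9.50 in the Y1KO arrays, against 7.19, 6.29, 8.67 and 8.47 in WT replicates 1 to 4. The WT arrays fell into a lower pair, replicates 1 and 2, and a higher pair, replicates 3 and 4, and spanned 2.38 without reaching the Y1KO arrays. The WT SD of 1.12 was at percentile 99.96 of all genes. Kazald1 differed by 1.64 (SE 0.58, limma adjusted p = 0.114), with a 95% interval of 0.31 to 2.97. Without WT replicate 2 the difference was 1.19 (adjusted p = 0.0863), and the test does not show that the genotypes are alike.

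Ibsp and Sparc gave small differences at high signal. Ibsp read 13.20 and 13.23 in the Y1KO arrays, against 12.86, 12.34, 12.94 and 12.87 in WT replicates 1 to 4. Both Y1KO arrays were above all WT arrays. Ibsp differed by 0.47 (SE 0.16, limma adjusted p = 0.109), or 1.38-fold, with a 95% interval of 0.09 to 0.84 on the log2 scale. Without WT replicate 2, which lay 0.52 below the next WT array, it was 0.33 (adjusted p = 0.0581). Sparc read 13.09 and 13.12 in the Y1KO arrays, against 12.89, 12.78, 12.99 and 12.95 in WT. The Y1KO arrays lay above all WT arrays by a gap of 0.10. Its difference of 0.21 (SE 0.09, 95% interval -0.01 to 0.42, limma adjusted p = 0.22) is the smallest of the set, and it was 0.16 without WT replicate 2 (adjusted p = 0.365). Quantile normalization lowered the Sparc difference to 0.10 (adjusted p = 0.613). The probe sets of Ibsp and Sparc lay at percentile 99.9 or above of all genes in both genotypes.

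Postn rose too, yet its WT arrays were arranged in another way. It read 12.19 and 12.14 in the Y1KO arrays, against 11.93, 11.74, 11.48 and 11.44 in WT replicates 1 to 4. WT replicate 2 was not low here. Postn rose by 0.52 (SE 0.14, limma adjusted p = 0.0477), which is 1.43-fold with a 95% interval of 1.14-fold to 1.79-fold. The call stands close to the threshold: without WT replicate 2 the difference was 0.55 (adjusted p = 0.0529), and with another WT array left out the adjusted p was 0.0891 (replicate 3) and 0.0929 (replicate 4). With Y1KO replicate 1 or 2 left out the difference was 0.49 and 0.54, and the adjusted p was 0.235 and 0.22.

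**Figure D2:**
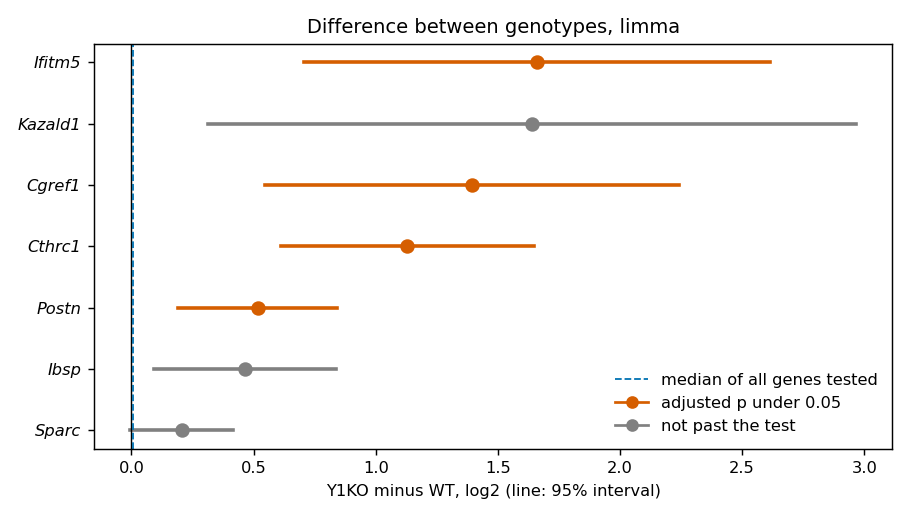
Differences between Y1KO and WT on the log2 scale for the 7 genes, with lines for the 95% interval of the limma model and the median of all genes tested as a dashed line. Ifitm5, Cgref1, Cthrc1 and Postn are past the test, and the Kazald1 interval, from 0.31 to 2.97, is the widest.

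The spread among WT arrays was itself shared. Ibsp, Sparc, Ifitm5, Cthrc1, Kazald1 and Cgref1 placed the 4 WT arrays in one and the same order, with replicate 2 lowest, then replicates 1 and 4, and replicate 3 highest. That order held in 4.54% of all genes and in 14.2% of the genes that rose. Of the 144 other listed genes 15 had it. Of these 4 rose, Mgp and Slc20a2 fell, and the rest were not called. Postn ran differently, with replicate 4 lowest and replicate 1 highest. Within Y1KO, replicate 2 was the higher array in the same 6 genes and the lower one in Postn, while over all genes replicate 2 was the higher one in 51.8%. The WT SD was above the median of all genes, 0.12, in 6 of the 7 genes, Sparc being the exception at 0.09.

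**Figure D3:**
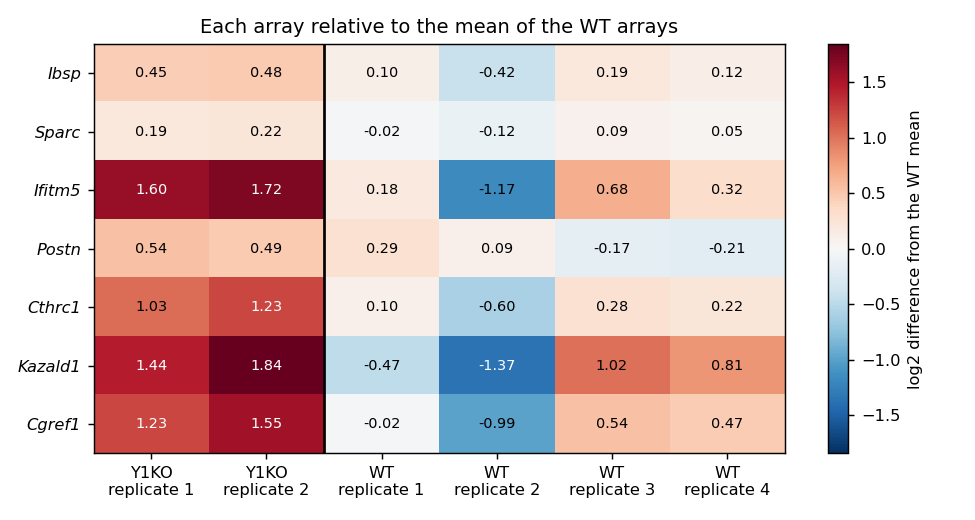
Log2 difference of each array from the mean of the WT arrays, by gene (rows) and array (columns, Y1KO left of WT). WT replicate 2 ranges from -1.37 in Kazald1 to 0.09 in Postn, and both Y1KO arrays are positive in every row.

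Smooth muscle, pericyte, macrophage and marrow stromal markers differed between the genotypes. Relative to the WT mean, the 6 osteoblast markers averaged 0.43 and 0.36 in Y1KO replicates 1 and 2, and -0.27 in WT replicate 2. At an unadjusted limma p under 0.05, 3 of the 6 were higher and 0 lower. In 5 of them both Y1KO arrays lay above all WT arrays, beside 17.5% of all genes. The 10 smooth muscle and pericyte markers averaged -1.05 and -1.18 in the Y1KO arrays and 0.24 in WT replicate 2, and 8 of them fell and 0 rose (1 was higher at an unadjusted limma p under 0.05, and 1 rose without WT replicate 2). The 17 macrophage markers averaged 0.30 and 0.69 in the Y1KO arrays and 0.07 in WT replicate 2, and 11 of them rose and 0 fell (0 at an unadjusted p). Their mean log2 levels were 5.77 and 6.16 in the Y1KO arrays and between 5.34 and 5.54 in WT, and 6 of the 17 lay below the median of all genes in Y1KO and 12 in WT. None is at 0 on an array's log2 scale. The macrophage count was 3 without WT replicate 4 and 1 without Y1KO replicate 2, and the smooth muscle count was 5 without either Y1KO array. The 9 osteoclast markers averaged 0.01 and 0.00 relative to the WT mean in the Y1KO arrays. Among them Itgb3 fell and 0 rose (3 were higher at an unadjusted limma p under 0.05, and 1 rose without WT replicate 1 or 3). Of 7 marrow stromal progenitor markers 4 fell and 1 rose, and 2 fell without either Y1KO array. No endothelial marker was called by limma or had an unadjusted p under 0.05. Of the osteoblast markers only Slc13a5, a citrate transporter gene, rose (limma adjusted p = 0.00817), and it did not pass without Y1KO replicate 1 (0.0727) or replicate 2 (0.0882). The part of these cells in the matrix gene differences was not tested.

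The nearest relatives of the members did not move as one group. Beside Ibsp, the other measured small integrin-binding glycoproteins were Dmp1, Mepe and Dspp, which neighbour it on chromosome 5. Dmp1, a phosphoprotein of osteocytes, read 11.79 and 11.96 in the Y1KO arrays, against 10.07, 8.85, 11.19 and 10.74 in WT replicates 1 to 4. Its difference was 1.66 (SE 0.53, limma adjusted p = 0.0789), and it passed without WT replicate 2 (1.21, adjusted p = 0.021) and without WT replicate 3 (0.035). Its WT arrays stood in the order seen for Ibsp. Mepe and Dspp were dim, with means of 3.10 and 4.39 in Y1KO and 2.84 and 4.25 in WT.

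Among the other genes of the SPARC family, 3 of 7 fell and 0 rose (2 were higher at an unadjusted limma p under 0.05). Leaving out WT replicate 1 gave 1 that rose. Fstl1, a secreted glycoprotein, read 10.24 and 10.23 in the Y1KO arrays, against 11.61, 11.74, 11.52 and 11.56 in WT. The groups lay far apart and Fstl1 fell by 1.38 (SE 0.09, limma adjusted p = 0.000198). Smoc1, an extracellular antagonist of BMP signals, fell by 1.60, and Sparcl1 fell by 0.70 and lost its call without Y1KO replicate 1 (adjusted p = 0.0565) or replicate 2 (0.0967).

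The other Ifitm genes, known as antiviral membrane proteins, gave a single call. Of 6, Ifitm1 rose by 0.77 (limma adjusted p = 0.00932) and the other 5 did not pass. A dimmer probe set of Ifitm1 differed by 0.22, and the mean of its probe sets by 0.49 (limma adjusted p = 0.0322). Without Y1KO replicate 1 or 2 Ifitm1 had an adjusted p of 0.086 and 0.0877. Fkbp11, whose product binds the Ifitm5 protein, read 9.47 and 9.53 in the Y1KO arrays, against 8.64, 8.24, 8.75 and 8.71 in WT. It rose by 0.91 (SE 0.14, limma adjusted p = 0.00482), and was at 0.0693 without Y1KO replicate 2. The other genes of that protein group, Cd81, Cd9 and Ptgfrn, did not pass, with differences of 0.01, -0.18 and 0.25.

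For the fasciclin-domain relatives of Postn, 1 of 3 rose. This was Stab1, a scavenger receptor of macrophages and sinus endothelium, at 0.84 (limma adjusted p = 0.00605, and 0.0581 without Y1KO replicate 2), and it moved beside the macrophage markers. A link between Stab1 and those markers was not tested. Tgfbi, the closest relative of Postn, differed by -0.31 and did not pass. Of 5 relatives of Kazald1, only Igfbp7 passed in this test. It read 10.40 and 10.55 in the Y1KO arrays, against 11.74, 11.93, 11.75 and 11.78 in WT, and fell by 1.33 (SE 0.10, limma adjusted p = 0.00025).

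**Figure D4:**
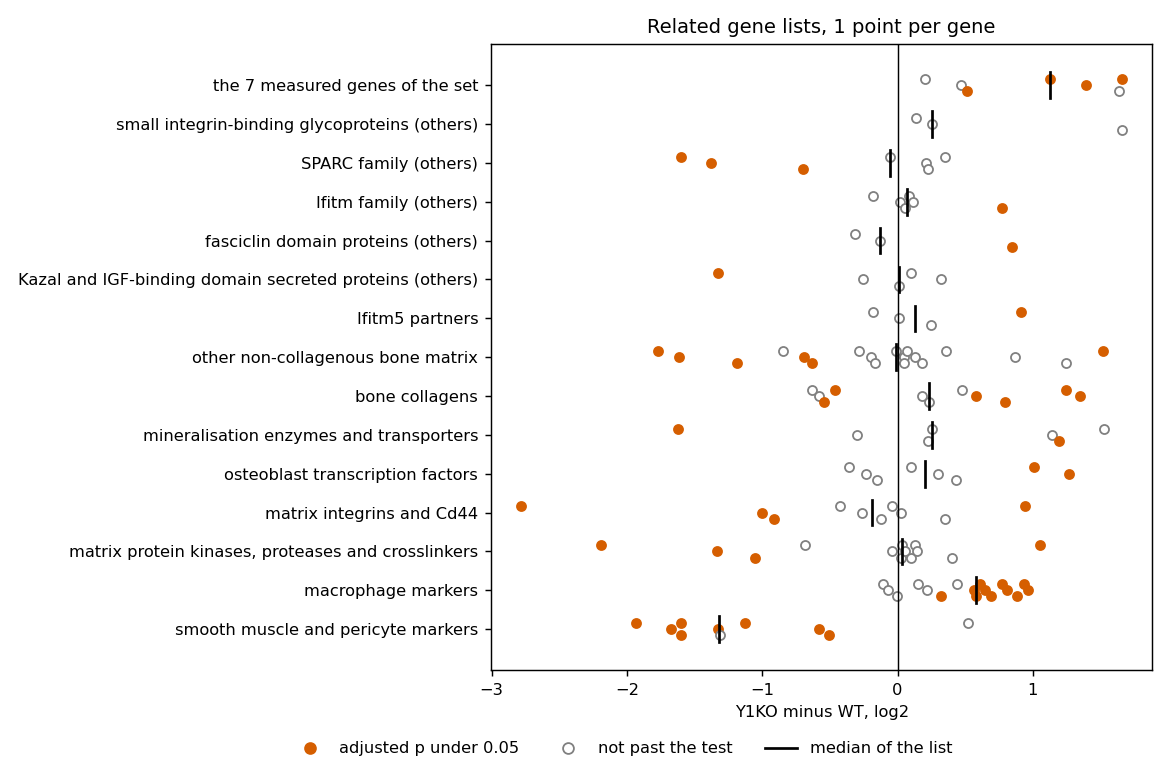
Differences between Y1KO and WT (log2, 1 point per gene) in the 7 genes and in related lists, with filled points past the test and bars at the median of each list. The 7 genes lie above 0, while the 19 other non-collagenous matrix genes spread from -1.77 to 1.52.

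Other non-collagenous matrix genes gave calls in both directions. Of 19 measured, 5 fell and 1 rose, with a median difference of -0.01, beside 0.01 over all genes. Ogn, a small leucine-rich proteoglycan, read 8.96 and 8.59 in the Y1KO arrays, against 10.21, 10.50, 10.51 and 10.33 in WT. It fell by 1.61 (SE 0.13, limma adjusted p = 0.00037). Mgp, an inhibitor of calcification, fell by 1.77. The matrix glycoprotein Tnc fell by 0.63 and the proteoglycan Aspn by 1.19. Tnc lost its call without Y1KO replicate 2 (adjusted p = 0.0791), and Aspn without Y1KO replicate 1 (0.091) or replicate 2 (0.198). The gene that rose, named after its values were seen, was Dcn, the gene of the proteoglycan decorin. It read 10.16 and 10.56 in the Y1KO arrays, against 8.80, 7.96, 9.73 and 8.86 in WT. Its WT arrays stood in the order seen for Ibsp, as did those of Mgp. Dcn rose by 1.52 (SE 0.39, limma adjusted p = 0.0349). When Y1KO replicate 1 was left out 3 genes fell, when replicate 2 was left out 2 fell, and in both cases none rose. The rising count was also 0 without WT replicate 1 or 4 and 2 without WT replicate 2 or 3.

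The collagen genes of bone were split. Of 11 measured, 4 rose and 2 fell, with a median difference of 0.23. Col1a1 read 13.62 and 13.58 in the Y1KO arrays, against 13.41, 13.35, 13.44 and 13.46 in WT. Its difference was 0.18 (SE 0.08, limma adjusted p = 0.225), and that of Col1a2 was 0.23 (adjusted p = 0.14). Col11a1, a chain of a minor fibril collagen, rose by 1.25 (SE 0.16, limma adjusted p = 0.00203). Col24a1 rose by 1.35, Col22a1 by 0.79 and Col5a2 by 0.58. Without Y1KO replicate 1 the adjusted p of these last genes ran from 0.0586 to 0.0857, and without Y1KO replicate 2 from 0.102 to 0.19. The rising count was 1 without either Y1KO array. The falling count was 0 when any array except WT replicate 3 was left out, and 4 when that one was. No test compared the collagens with the non-collagenous genes.

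Genes that act on these matrix proteins were followed by their roles. Fam20c, the kinase that phosphorylates secreted bone proteins such as Ibsp, read 9.03 and 9.15 in the Y1KO arrays, against 8.07, 7.77, 8.08 and 8.22 in WT. It rose by 1.05 (SE 0.13, limma adjusted p = 0.00171). Its relative Fam20a fell by 1.34. The collagenase gene Mmp13 fell by 2.19, and the crosslinking enzyme gene Tgm2 fell by 1.05 with an adjusted p of 0.0623 without Y1KO replicate 1 and 0.0504 without replicate 2. In this list of 13 kinases, proteases and crosslinkers, 1 rose and 3 fell. The rising count was 2 without WT replicate 1, and the falling count was 2 without either Y1KO array.

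Of 10 genes for matrix receptors, 1 rose and 3 fell. Itga9 read 5.86 and 5.69 in the Y1KO arrays, against 8.25, 8.45, 8.79 and 8.74 in WT. This integrin chain, which can bind osteopontin, fell by 2.78 (SE 0.15, limma adjusted p = 0.000103). Itgb3, the beta chain of the vitronectin receptor that recognises bone sialoprotein and osteopontin, fell by 1.00, and Itga8 fell by 0.91. Itga8 was dim, with means of 3.82 in Y1KO and 4.73 in WT. Itga4 rose by 0.94. Without Y1KO replicate 1 Itga8 and Itga4 had an adjusted p of 0.062 and 0.0579, and without Y1KO replicate 2 Itga4 had 0.0672. The falling count was 2 without Y1KO replicate 1, and the rising count was 0 without either Y1KO array.

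Of the mineralisation genes 2 of 7 were called, and of the osteoblast transcription factors 2 of 8, beside 12.7% of all genes. That share was 23% with a filter at the 40th percentile of mean level and 29.1% at the 60th. Most of these genes lie above both levels. Among 7 enzymes and transporters, Smpd3, a sphingomyelinase needed for mineralisation, rose by 1.20 (SE 0.31, limma adjusted p = 0.0388), and the phosphate transporter gene Slc20a2 fell by 1.62. Of 8 transcription factors, 2 rose and 0 fell (4 were higher and 0 lower at an unadjusted limma p under 0.05): Dlx3 by 1.27 (adjusted p = 0.0296) and Mef2c by 1.01 (adjusted p = 0.0272). Smpd3, Dlx3 and Mef2c lost their calls without Y1KO replicate 1 (adjusted p of 0.195, 0.138 and 0.15) or Y1KO replicate 2 (0.216, 0.213 and 0.184), and Smpd3 also without WT replicate 3 (0.0671). Leaving out WT replicate 2 gave 2 rising mineralisation genes and 1 falling transcription factor. Runx2 and the osteocalcin genes are not analysed here.

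The genes whose log2 pattern over the 6 arrays was most like that of each member were ranked by Pearson correlation among the 2327 genes with an SD of at least 0.3. These r values order genes and carry no test, because the arrays form 2 genotypes and share WT replicate 2. The closest genes were Sgms2, Phospho1 and Rab3a for Ibsp (0.998 to 0.996). For Ifitm5 they were Pdgfrl, Cdo1 and Lpar3 (0.999 to 0.998), and for Cthrc1 Klhl6, Bcan and Smad9 (0.999 to 0.998). Kazald1 had Robo2, Vstm4 and Pcsk5 (0.997 to 0.991), and Cgref1 had Cd1d1, Cybrd1 and Cadm1 (0.998 to 0.997). For Postn the nearest were Capg, 4833420G17Rik and Numb, with lower values of 0.984 to 0.969. Postn had 13 genes above 0.95, Kazald1 64, Ibsp 110, Cgref1 192, Ifitm5 194 and Cthrc1 308. Sparc was left out, since its SD over the arrays was 0.13.

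The genes next to the members on their chromosomes were also read, taking the 2 nearest measured protein-coding genes on each side from the gene order of GRCm38.p6. Of these 28 neighbours, 5 rose, 1 fell and 22 did not pass. The share of all genes past the test in either direction was 12.7%. Beside Ifitm5, Ifitm1 rose and Ifitm2, Pgghg and Nlrp6 did not pass, with differences of 0.08, 0.05 and -0.05. Around Kazald1 the differences of Pdzd7, Sfxn3, Tlx1 and Lbx1 lay between -0.13 and 0.05. Next to Cthrc1, Slc25a32 was 0.46 higher (limma adjusted p = 0.0235), and next to Cgref1, Preb was 0.47 higher (adjusted p = 0.0427). Exosc8, 2 places from Postn, was the neighbour that fell, by 0.47.

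The number of members called varied between settings. Quantile normalization left Cthrc1 as the one gene called, and an ordinary model without moderation called 0 (3 at an unadjusted p under 0.05). Without Y1KO replicate 1 or without Y1KO replicate 2, 0 of the 7 genes were called by limma, while 4 had an unadjusted p under 0.05 in each case, and the calls over all genes numbered 944 and 487, against 2541 with all arrays. Ifitm5, Cthrc1 and Cgref1 were called when WT replicate 2 or 3 was left out. Cthrc1 and Postn were called when WT replicate 1 was left out, and Cthrc1 and Cgref1 when it was WT replicate 4. All 7 differences stayed above 0 in each of the 16 alternative settings, but most of these could not have turned them. Filters, probe set choices, trend and robust options and no moderation leave the difference of a gene with 1 probe set unchanged. Leaving out 1 array cannot turn it while both Y1KO arrays lie above all WT arrays.

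**Figure D5:**
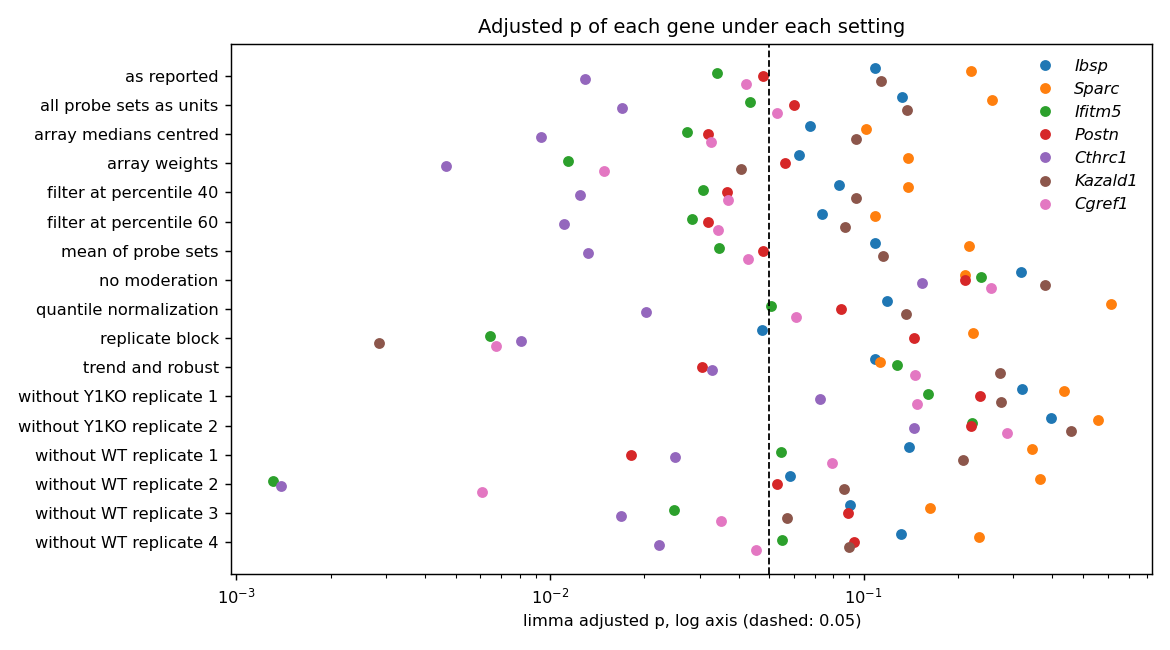
Limma adjusted p of each gene (log axis) as reported and under each alternative setting, with the threshold of 0.05 dashed. Cthrc1 is past the threshold in all settings except those without moderation or without a Y1KO array, where it reads 0.153, 0.0725 and 0.145.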

How the data were processed

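Total RNA of sorted cells was labelled with biotin by a whole-transcript kit and hybridised to 6 single-channel arrays, 2 Y1KO and 4 WT, grouped by their titles. The deposited table holds log2 expression values for 28815 probe sets. The authors used RMA and limma, per the submitters' processing notes, and the sources used here do not state versions or settings. The deposited log2 values already had closely similar distributions and were not normalized again. Quantile normalization still changed a small difference at high signal, that of Sparc. Names came from the repository's platform annotation, which can be old: 21780 probe sets had 1 symbol, 1605 several and 5430 none. The probe set with the highest mean stood for a gene, leaving 19935 genes.

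Y1KO was compared with WT by limma 3.58.1 (R 4.3.3, lmFit and eBayes), genotype only, two-sided, adjusted by Benjamini-Hochberg over all genes. A gene was called at an adjusted p under 0.05. The fit was tested on simulated data with independent noise and, for each gene, the same SD in both genotypes. The members varied more in WT than in Y1KO, a case which that simulation does not cover. "Rose" and "fell" are used of called genes. Differences are Y1KO minus WT. The number of arrays limits the precision, and values near background understate differences. Alternatives were quantile normalization, median centring, filters at the 40th and 60th percentile, the mean of probe sets, all probe sets as units, trend and robust options, array weights, no moderation, a replicate block and leaving out each array. The members, the 18 gene lists and the rule for named genes (all members, at most 4 called genes of smallest p per list, any gene of a list of 8 or fewer, Col1a1, and for each member 3 genes of most similar pattern) were chosen with earlier results of these data known. Chromosomal neighbours, Col1a2 and Dcn were named after their values were seen, and Npy1r as the targeted gene.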

Additional observations from a re-analysis of the deposited data

Results flagged for a closer look

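Among the WT arrays, Ibsp in replicate 2 stood far from the others: it read 12.34, against 12.86 to 12.94 in the other 3, so that its gap to the nearest was 0.856 of the whole range. That is beyond the 95% limit of Dixon's test for 4 samples, which chance alone passes in about 1 of 20 groups. Of 53 genes examined in this way, 3 passed. The other 2 were Mgp, at 8.71 in WT replicate 3 against 7.85 to 7.94 in the other WT arrays (0.895 of the range), and the macrophage gene C1qa, at 5.98 in WT replicate 2 against 5.83 to 5.85 (0.88 of the range).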

How the results depend on the processing

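The 4 members past the test became 1 with quantile normalization, 2 with all probe sets as units, 2 with trend and robust options and 0 without moderation (3 at an unadjusted p under 0.05), and the cause was not tested. Leaving out 1 array gave 0 to 3 members. The count over all genes, 2541, was 344 without moderation and ranged from 487 to 2462 when 1 array was left out. Median centring moved the share of higher calls to 60.5%, against 47.9%, with the median of all genes shifted to 0.07. Array weights called Kazald1 (adjusted p = 0.0405) and not Postn (0.0563).

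Same-numbered arrays of the 2 genotypes did not deviate together (correlations over genes of 0.01 and -0.20). With 2 Y1KO arrays the deviations from their mean mirror each other, so this cannot show whether the numbers pair the arrays. With the replicate block 5 members and 2181 genes were called, Ibsp (adjusted p = 0.0475) and Kazald1 (0.00285) being added and Postn (0.145) lost. That fit takes the genotype difference from replicates 1 and 2 only, since replicates 3 and 4 exist only in WT. WT replicates 1 and 2 were the lowest WT arrays for Ibsp and Kazald1 and the highest for Postn. For the 46 other named genes, 648 of 719 alternatives kept direction and side of the threshold, 67 lost the call, 4 gained it and 0 turned direction. Signal limits Mepe, Dspp and Npy1r, which lie near the bottom of the range. Itga8 and Sparcl1, which fell, were also dim in Y1KO, with means of 3.82 and 4.56 (percentiles 20.6 and 32.6 of all genes).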
